A study of Mus musculus with 6 samples.

Results

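The Notch pathway was examined through 10 of its genes in plasmacytoid dendritic cells (pDCs), the interferon-producing dendritic cells that share part of their gene expression with lymphocytes. The genes are the receptors *Notch1*, *Notch2* and *Notch3*, the ligands *Jag1*, *Dll1* and *Dll4*, the nuclear mediator *Rbpj*, and the target genes *Hes1*, *Nrarp* and *Dtx1*. They were taken by symbol from probe sets to which the platform annotation gives a single gene, and are 10 of the 19937 genes named in this way. *Rbpj* has 2 such probe sets and each of the other genes has 1, and the brighter probe set was kept. All cultures came from bone marrow of C57BL/6 mice with the genotype Gfi1f/f; Gfi1bf/f; ERCre, so that both groups carried the floxed alleles of the repressors *Gfi1* and *Gfi1b* and an inducible Cre recombinase. In KO cultures 1 µM tamoxifen was given during differentiation to delete the floxed alleles, and WT cultures were left untreated. Each of 3 mice gave 1 KO and 1 WT culture, grown in 25 ng/ml Flt-3L, sorted as B220+ CD11c+ cells and put on 1 Affymetrix array each. No tamoxifen-treated culture without floxed alleles is among the samples, so tamoxifen and deletion cannot be told apart, and by the study's genotyping PCR the deletion was inefficient in such cultures.

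Notch receptors are single-pass membrane proteins that are cut when a Delta-like or Jagged ligand on a neighbouring cell binds them. ADAM metalloproteases and then gamma-secretase release the intracellular domain, which enters the nucleus, joins the DNA-binding protein RBPJ and a Mastermind coactivator, and turns RBPJ from a repressor into an activator of genes such as *Hes1*. In blood, Notch1 signaling commits progenitors to the T lineage at the expense of the B lineage, and Notch2 signaling is required for marginal zone B cells and for a subset of splenic conventional dendritic cells. The study's list of transcript primers holds 2 for *Notch1*, and they are shown here 5′ to 3′ as listed, as the study’s own sequences for this gene. The list does not name the cells in which they were used.
Notch1 primer 1: tgttaatgagtgcatctccaa
Notch1 primer 2: cattcgtagccatcaatcttgtcc

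Of the genes behind the sort, *Itgax* (CD11c) had intensities of 1217, 926 and 829 in the KO arrays of mice 1, 2 and 3 and 1778, 818 and 1160.0 in the WT arrays. *Ptprc* (CD45, of which B220 is an isoform that the probe set does not separate) had 3672, 3072 and 2654 in KO and 4066, 2804 and 2475 in WT arrays. All 12 measured pDC marker genes, among them *Siglech*, *Bst2* and *Tcf4*, lay above the background limit. This limit, an intensity of 62.7, is the 95th percentile over 1194 genes for odour and pheromone receptors, a class with no known use in blood cells, whose median was 18.9. Markers of other cell types were present too and differed between arrays. The summed intensity of 12 stromal markers was 720, 4570 and 4970 in the KO arrays of mice 1, 2 and 3 and 799, 12674 and 14543 in the WT arrays. That of 8 macrophage markers was 4290, 15750 and 17299 in KO and 4945, 19756 and 19901 in WT arrays. That of 8 neutrophil markers was 490, 2312 and 4197 in KO and 1299, 8280 and 9494 in WT arrays. That of 7 B lineage markers was 1174, 2954 and 3288 in KO and 926, 4649 and 4318 in WT arrays. Each of these lists was lower in both arrays of mouse 1 than in the other arrays of its group. The pDC markers summed to 43762, 31064 and 28355 in KO and 46053, 23391 and 18065 in WT arrays. Both arrays of mouse 1 thus held more pDC signal and less stromal, macrophage, neutrophil and B lineage signal than those of mice 2 and 3, and the first principal component (70.8% of the variance) set mouse 1 apart. The B220+ CD11c+ gate was meant to select pDCs, and the source of the stromal, macrophage, neutrophil and B lineage signal was not tested. Mouse 3 stood apart by sex: *Xist*, which the inactive X chromosome expresses, was at 24.6 in its KO and 23.9 in its WT array, and at 1893 to 2449 in those of mice 1 and 2, so mouse 3 was male and the others female. Where the probes of *Gfi1* and *Gfi1b* lie against the deleted exons was not examined. The log2 differences of *Gfi1* and *Gfi1b*, KO minus WT, were 0.37 (standard error 0.12) and 0.55 (standard error 0.16). Both had all KO arrays above all WT arrays, where 10.2% of all probe sets had. *Gfi1* was above the background limit in 1 array only. These values check nothing about the deletion. In sorted bulk samples, fewer cells of a type and less RNA per cell cannot be told apart.

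None of the 10 genes differed between KO and WT pDCs by limma at a Benjamini-Hochberg adjusted p of 0.05, and neither did any other probe set (0% of 21640). The smallest adjusted p among the 10 was 0.72, that of *Notch2*. With the mouse as a block it was 0.31, that of *Jag1*, and again 0% of all probe sets passed. The median log2 difference of the 10 genes was -0.12, against 0.028 over all probe sets, with 8 of the 10 below 0 where 44.1% of all probe sets were, and 2 above 0 where 55.9% were. At an unadjusted p under 0.05, none of the 10 genes was lower or higher without the block, where 1.9% of all probe sets were lower and 5.14% higher. With the block *Jag1* and *Rbpj* were lower at this threshold, where 5.99% of all probe sets were lower and 7.46% higher. This count of 2 became 1 when mouse 2 or mouse 3 was left out of that fit, and without the block it was 2 when the WT array of mouse 1 was left out and 1 when both its arrays were.

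Intensities of different genes come from different probes, so that a level below is set only against the same gene in other arrays and against the background limit.

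Of the receptors, *Notch2* was the most even. It had intensities of 533, 564 and 535 in the KO arrays of mice 1, 2 and 3, against 595, 641 and 596 in the WT arrays. All 3 KO values lay below all 3 WT values, which was true of 4.65% of all probe sets (exact two-sided permutation test, p = 0.1, the smallest that 3 arrays against 3 allow). The log2 difference of *Notch2* was -0.16, -0.18 and -0.15 within mice 1, 2 and 3. Its mean of -0.17 had a 95% interval of -0.37 to 0.043 in limma (adjusted p = 0.72). No other of the 10 genes was separated between the groups in this way.

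*Notch1*, the receptor of T lineage commitment, had 428, 339 and 331 in KO and 512, 291 and 284 in WT arrays of mice 1, 2 and 3. The highest values of both groups were those of mouse 1, and the groups overlapped. The mean intensity of *Notch1* was 366 ± 53.7 in KO and 362 ± 130 in WT pDCs (SD, n = 3 each). Its log2 difference was -0.26 in mouse 1 but 0.22 in both mice 2 and 3, so that the mean of 0.062 had an interval of -0.55 to 0.67 (adjusted p = 0.97 from limma). Leaving out 1 WT array moved it to 0.34 (mouse 1) or to -0.086 (mouse 3). In both groups the summed pDC, conventional dendritic cell and endothelial markers had the same order of mice as *Notch1*, highest in mouse 1 and lowest in mouse 3. The summed stromal, macrophage and neutrophil markers had the reverse order. The conventional dendritic cell sum ran only from 6038 to 6252 in KO. In both groups its members *Itgax*, *Clec9a*, *Cd8a* and *Clec10a* were highest in mouse 1, and *Sirpa*, *Batf3* and *Ccr7* lowest there. *Zbtb46* and *Xcr1* were mixed. Of 8 endothelial markers, 4 lay above the background limit. The B lineage and the T and NK cell markers were lowest in mouse 1 in both groups. The part of cell composition in these values was not tested.

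*Notch3*, which is one of the genes the study listed as higher in pDCs than in hematopoietic stem cells, had 133, 109 and 90.0 in KO and 134, 105 and 114 in WT arrays. Its differences were -0.018, 0.058 and -0.34 in mice 1, 2 and 3, with a mean of -0.099 and an interval of -0.51 to 0.32 (adjusted p = 0.91 from limma). Only the KO array of mouse 3 lay below all WT arrays. *Notch4*, the remaining receptor, had a log2 difference of 0.11 (standard error 0.098).

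**Figure D1:**
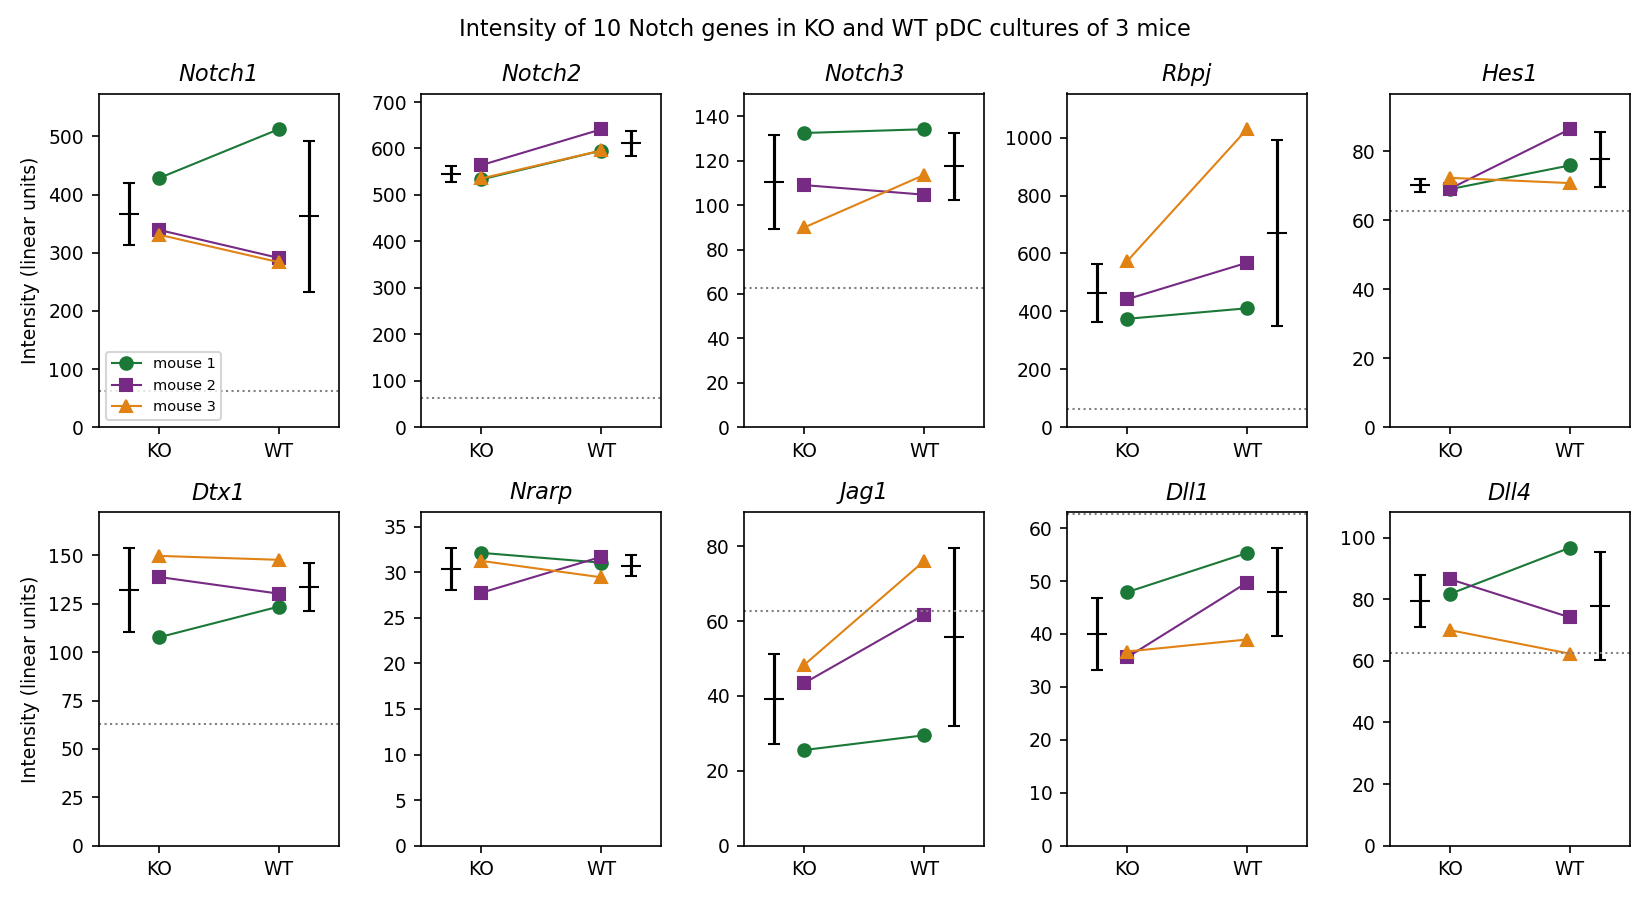
Intensity (linear units, vertical axis from 0) of each of the 10 genes in KO (left) and WT (right) cultures, with 1 line per mouse, black bars for mean ± SD of 3 arrays, and a dotted line at the background limit (62.7, off the axis for *Nrarp*). *Notch2* is lower in KO in every mouse, at 533 to 564 against 595 to 641 in WT. The mouse averages of *Notch1* and *Rbpj* span 0.61 and 0.97 on the log2 scale, and their mean differences, KO minus WT, are 0.062 and -0.45.

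*Rbpj* encodes the DNA-binding protein through which all Notch receptors act. It had 374, 442 and 573 in the KO arrays of mice 1, 2 and 3 and 411, 568 and 1029 in the WT arrays. The WT array of mouse 3 stood highest, and the KO array of the same mouse lay above the WT arrays of mice 1 and 2. *Rbpj* was lower in the KO culture of each mouse, by log2 differences of -0.13, -0.36 and -0.85, with a mean of -0.45 (interval -1.29 to 0.39, adjusted p = 0.79 from limma). The mean rests in part on single WT arrays, as leaving out that of mouse 3 gave -0.083 and leaving out that of mouse 1 gave -0.75. Mouse 3, with the widest difference, is the male, and with 1 male mouse sex and mouse cannot be told apart. In both groups *Rbpj* rose from mouse 1 to mouse 3, as did the summed stromal, macrophage and neutrophil markers, while the pDC sum fell. Within each mouse these stromal, macrophage and neutrophil sums were also lower in KO. The part of cell composition in the values of *Rbpj* was not tested. With the mouse as a block in limma the interval was -0.81 to -0.088, the unadjusted p 0.022 and the adjusted p 0.33. The second probe set of *Rbpj*, below the background limit in all arrays, had -0.15, and the average of both probe sets had -0.30.

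The promoter of *Rbpj* is shown because, of the 9 genes that could be searched, it alone held the short sequence that RBPJ itself binds. RefSeq promoter windows of 300 bases (250 before and 50 after the transcription start, build GRCm38.p6) matched 9 of the 10 genes (all but *Hes1*), in 11 windows. They were searched on both strands for the RBPJ core TGGGAA, which reads as TTCCCA on the other strand and which 25.6% of all 32851 promoter windows of this length hold. *Rbpj* has 2 overlapping windows. Its first, at chr5:53590096-53590395 on the plus strand, holds the core at -149 and, on the other strand, at -65 relative to the start, in capitals here.
Rbpj promoter: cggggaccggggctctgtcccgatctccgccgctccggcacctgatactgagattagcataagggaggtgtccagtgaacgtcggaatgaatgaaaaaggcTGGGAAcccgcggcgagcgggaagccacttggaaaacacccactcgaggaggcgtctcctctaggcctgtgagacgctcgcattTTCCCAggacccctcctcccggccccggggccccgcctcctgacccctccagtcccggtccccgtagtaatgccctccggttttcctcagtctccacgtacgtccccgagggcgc
The longer form GTGGGAA, held by 6.38% of all windows, and the GFI1 sequence AATCACNGC, held by 0.919%, were in none of the 11 windows. The RBPJ core overlaps the longer form by construction. A match of letters is a description of this window and not a binding site.

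Among the ligands, *Jag1*, which encodes Jagged1, had 25.5, 43.4 and 48.3 in the KO arrays of mice 1, 2 and 3 and 29.5, 61.7 and 76.0 in the WT arrays. Only the WT array of mouse 3 was above the background limit, so that the differences of *Jag1* are mostly between values within background. It was lower in the KO culture of each mouse, by -0.21, -0.51 and -0.65 on the log2 scale. The mean of -0.46 had an interval of -1.44 to 0.53 without the block (adjusted p = 0.81 from limma). With the mouse as a block in limma the interval was -0.74 to -0.17, the unadjusted p 0.0075 and the adjusted p 0.31. Leaving out the WT array of mouse 1 gave -0.86, and leaving out either the KO array of mouse 1 or the WT array of mouse 3 gave -0.18. The 6 arrays had the same order in *Jag1* as in the summed stromal, macrophage and neutrophil markers. The part of RNA from such cells in the values of *Jag1* was not tested.

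*Dll1*, a Delta-like ligand that drives T cell development from progenitors in culture, had 47.9, 35.6 and 36.7 in KO and 55.3, 49.7 and 39.0 in WT arrays. All 6 values lay below the background limit. The differences were -0.21, -0.48 and -0.087, with a mean of -0.26 and an interval of -0.69 to 0.17 (adjusted p = 0.77 from limma). *Dll4*, the ligand that thymic epithelium uses to instruct T cell progenitors and another gene of the study's list of genes higher in pDCs than in stem cells, had 81.7, 86.5 and 70.0 in KO and 96.7, 74.1 and 62.3 in WT arrays. Its differences were -0.24, 0.22 and 0.17, in the same directions as those of *Notch1* in every mouse. The mean of *Dll4* was 0.049 with an interval of -0.39 to 0.49 (adjusted p = 0.96 from limma), and median centring of the arrays turned it to -0.0067.

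Among the target genes, *Hes1*, a repressor of the basic helix-loop-helix class and the most widely used readout of Notch activity, had 69.0, 69.1 and 72.3 in KO and 75.9, 86.4 and 70.8 in WT arrays. The groups overlapped only through the WT array of mouse 3. The mean of *Hes1* was 70.2 ± 1.87 in KO and 77.7 ± 7.96 in WT pDCs (SD, n = 3 each), and the log2 difference of -0.14 had an interval of -0.40 to 0.11 (adjusted p = 0.78 from limma).

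*Nrarp*, which encodes a small ankyrin repeat protein that promotes the loss of the Notch intracellular domain, had 32.1, 27.8 and 31.2 in KO and 31.1, 31.7 and 29.4 in WT arrays. All 6 values of *Nrarp* lay below the background limit, and its difference of -0.019 had an interval of -0.25 to 0.22 (adjusted p = 0.97 from limma). *Dtx1*, which encodes the ubiquitin ligase Deltex1, had 108, 139 and 150 in KO and 124, 130 and 148 in WT arrays. Its difference of -0.029 had an interval of -0.40 to 0.34 (adjusted p = 0.98 from limma), and it was lowest in the arrays of mouse 1 in both groups.

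**Figure D2:**
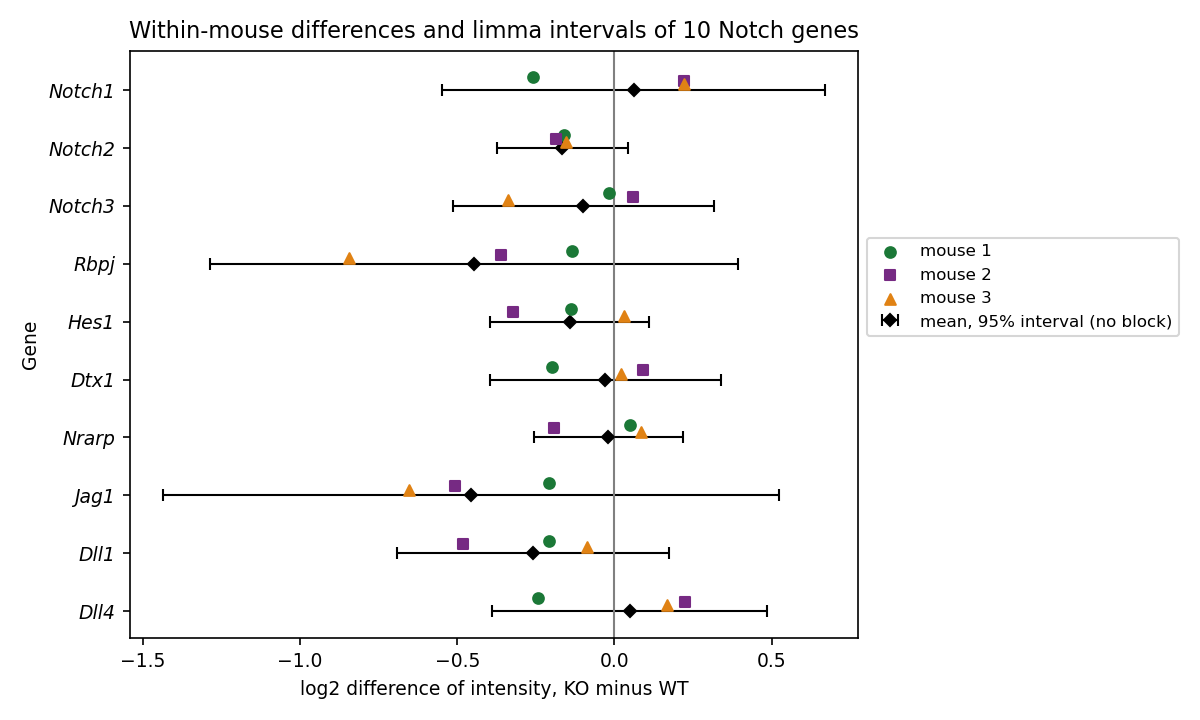
Log2 difference of intensity, KO minus WT (horizontal axis), for each gene, with 1 coloured symbol per mouse and a black diamond with bar for the mean and its 95% interval in limma without the block. All these intervals include 0. With the mouse as a block, those of *Rbpj* (-0.81 to -0.088) and *Jag1* (-0.74 to -0.17) did not, without adjustment for the number of probe sets. The mice lie closest together for *Notch2*, at -0.16, -0.18 and -0.15.

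Within mice, *Notch2*, *Rbpj*, *Jag1* and *Dll1* were lower in the KO culture of all 3 mice. This is 4 of the 10 genes, where 17.4% of all probe sets were lower in all 3 mice and 21.3% were higher in all 3. None of the 10 was higher in all 3 mice, and the other 6 were mixed. The count of genes with 1 direction was 5 after another quantile normalization and 6 with median centring.

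Levels also differed between mice. The gaps below are ranges over mice, a measure unlike the mean differences between cultures. Averaged over both cultures of each mouse, the highest and lowest mouse differed by 0.97 on the log2 scale for *Rbpj*, by 0.61 for *Notch1*, by 0.43 for *Dll4*, by 0.40 for *Notch3* and by 0.37 for *Dtx1*. For *Notch2* and *Hes1* this gap was 0.094 and 0.11, and *Jag1*, *Dll1* and *Nrarp* were too close to background for a gap to be read. *Notch1* was 1.51-fold as high in mouse 1 as in the mean of the other mice. With 1 mouse on one side, no test of this difference was made.

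**Figure D3:**
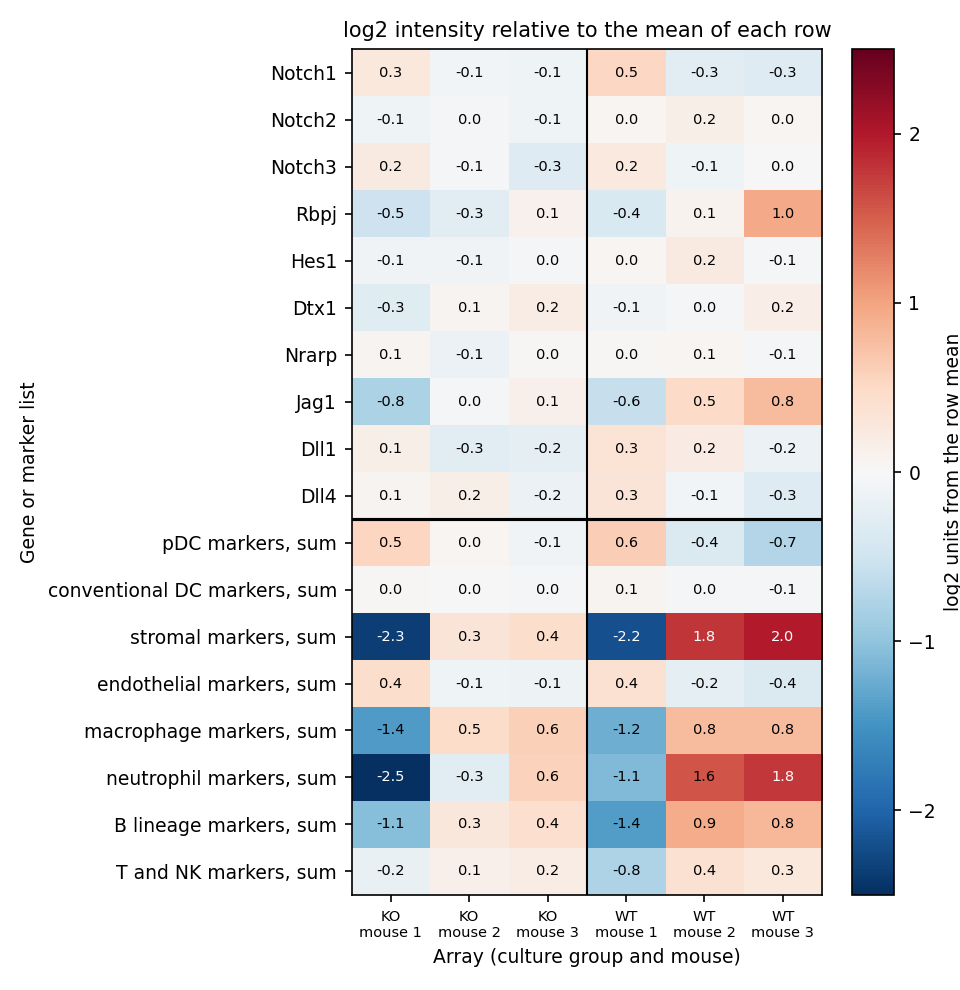
Log2 intensity relative to the mean of each row (colour and printed value), for the 10 genes (upper rows) and for the summed intensity of 8 lists of cell type markers (lower rows), in KO arrays (left) and WT arrays (right) of mice 1, 2 and 3. The stromal, macrophage and neutrophil rows are lowest in both arrays of mouse 1, as is *Jag1*, while *Notch1* and the pDC row are highest there.

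Genes whose levels followed those of the 10 genes were taken as the 3 with the highest Pearson's r over the 6 arrays among those above background (11489 or 11490 candidates). *Notch1* was most like *Cdk5rap3* (r = 0.998), *Ripor2* (r = 0.997) and *Msi2* (r = 0.997), the last encoding an RNA-binding protein of stem cells. *Jag1* was most like *Txnrd1*, *Itch* and *Myc* (r = 0.9997, 0.9995 and 0.998). *Rbpj* was most like *Arg1* (r = 0.997), an arginase of macrophages, *Dgat1* (r = 0.99) and *Gys1* (r = 0.99). *Notch2* was most like *Lpin2* (r = 0.99), *Foxo6* (r = 0.98) and *Snapin* (r = 0.98), and *Hes1* most like *Crnkl1* (r = 0.99). The 6 arrays share mice in pairs and mouse 1 stands apart, so these values are a description only. Each is among the highest of 11489 or 11490 values over only 6 arrays, so that r near 1 can come from this selection alone. All but 1 of the *Jag1* values lie below the background limit. No coexpression with *Itch*, *Myc* or any other gene is read from these values.

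The wider pathway was read from 76 genes by role, from ligands to targets, the 10 genes included. No gene of it passed the adjusted p of 0.05 (0% of all probe sets did), with or without the block, and the smallest adjusted p was 0.69 without it and 0.29 with it. The median log2 difference of the 76 genes was -0.0045, against 0.028 over all probe sets. Without the block, 4 genes were lower and 3 higher at an unadjusted p under 0.05, where 1.9% and 5.14% of all probe sets were. These are *Adam10*, *Furin*, *Mib1* and *Cdk8* on the lower side and *Dll3*, *Dner* and *Rbpjl* on the higher side. With the block 9 were lower and 3 higher, where 5.99% and 7.46% of all probe sets were. In all, 21 of the 76 genes were lower and 9 higher in the KO culture of all 3 mice, where 17.4% and 21.3% of all probe sets were. Of the 76 genes, 8 had all KO arrays below all WT arrays, where 4.65% of all probe sets had, while 4 had all KO arrays above, where 10.2% had. Without the block, the count of 4 genes lower at an unadjusted p under 0.05 also depended on single arrays. It fell to 1 when the KO or the WT array of mouse 2, or mouse 3 as a whole, was left out. It fell to 0 when the WT array of mouse 3, or mouse 2 as a whole, was. The count of 3 genes higher at this p was 0 in each of these cases and 6 when the WT array of mouse 1 was left out. In the blocked fit, 4 genes were lower when mouse 2 or mouse 3 was left out, against 9 with all mice, and the higher count was 5, 0 and 1 with mouse 1, 2 and 3 left out.

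Of the 9 proteases and their cofactors, 5 were lower in all 3 mice and 1 was higher, where 17.4% and 21.3% of all probe sets were. In the other roles the lower and higher counts were 1 and 0 of 4 receptors and 2 and 1 of 9 ligands. They were 0 and 0 of 5 glycosyltransferases, 3 and 3 of 13 endocytosis and ubiquitin genes, and 5 and 1 of 10 nuclear genes. The corepressors had 3 and 1 of 12, the degradation genes 1 and 1 of 3, and the targets 1 and 1 of 11. *Adam10*, the metalloprotease of the ligand-dependent cut, had 354, 364 and 305 in KO and 417, 426 and 491 in WT arrays. Its groups did not overlap, and its log2 difference was -0.38 (standard error 0.12, unadjusted p = 0.015, adjusted p = 0.69 from limma). *Furin*, which cuts the receptor precursor in the Golgi, had 246, 230 and 296 in KO and 318, 306 and 343 in WT arrays, a difference of -0.33 (standard error 0.12, adjusted p = 0.69 from limma), also without overlap. *Adam17*, a related metalloprotease, was at -0.22 (standard error 0.18). The subunits of gamma-secretase did not share a direction. *Psen2*, a catalytic subunit, was at -0.27 and *Ncstn*, the substrate receptor, at -0.15, each lower in all 3 mice, while *Psenen*, a subunit needed to activate the enzyme, was at 0.27 and higher in all 3. The KO arrays of *Psenen* had 1613, 1661 and 2024 and its WT arrays 1505, 1490.0 and 1379, without overlap.

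Of the genes that sort receptors and ligands, *Mib1*, the ubiquitin ligase that activates ligands in the sending cell, had 297, 278 and 315 in KO and 340, 358 and 355 in WT arrays, a difference of -0.24 (standard error 0.091, adjusted p = 0.69 from limma). *Numb*, an inhibitor of Notch, was at -0.26 and lower in all 3 mice, and *Itch*, a ubiquitin ligase of the receptor, was at -0.11. *Neurl1b*, another ligase of ligands, was at 0.26 and higher in all 3 mice. The fringe glycosyltransferases *Lfng* and *Mfng*, which tune the choice of ligand, were at -0.13 (standard error 0.30) and 0.17 (standard error 0.20).

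In the nucleus, *Maml2*, a coactivator, was at -0.21 (standard error 0.18) and *Snw1*, a cofactor of RBPJ, at -0.16 (standard error 0.095), each lower in all 3 mice. Of the other genes of this role, *Ep300* (-0.091) and *Kat2b* (-0.14) were also lower in all 3 mice. *Maml1* (0.036), *Maml3* (0.035), *Crebbp* (0.026) and *Kat2a* (-0.063) were mixed. *Rbpjl*, a relative of *Rbpj* known from the pancreas, was at 0.28 (standard error 0.10), but all its values, 40.5 to 47.6 in KO and 33.8 to 36.9 in WT arrays, lay below the background limit. The odour and pheromone receptors had a median difference of 0.14, and *Dll3* (0.37) and *Dner* (0.23) were also below the limit in all arrays. *Ctbp2*, a corepressor, was at -0.40 and lower in all 3 mice, and *Cdk8*, which phosphorylates the Notch intracellular domain for its destruction, at -0.22 without overlap between groups.

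Among further targets, *Myc*, a growth regulator that Notch1 activates in T cell precursors and many other pathways activate too, had 63.5, 177 and 203 in KO and 80.1, 347 and 442 in WT arrays. It was lower in the KO culture of all 3 mice, by -0.34, -0.97 and -1.12, a mean of -0.81. In limma the standard error was 0.75 and the adjusted p 0.81, and with the block they were 0.16 and 0.29. The lowest values of *Myc* were again those of mouse 1, where the stromal and macrophage markers were lowest. *Hes5*, a close relative of *Hes1*, had 151, 142 and 142 in KO and 134, 122 and 118 in WT arrays, a difference of 0.22 (standard error 0.094, adjusted p = 0.70 from limma), with all KO arrays above all WT arrays. Of the measured targets of the T lineage, *Ptcra*, the pre-T cell receptor chain, had a mean of -0.040 with an interval of -0.62 to 0.54. *Il2ra*, the interleukin 2 receptor alpha chain, had differences of -0.23, -0.16 and 0.23 in mice 1, 2 and 3, with a mean of -0.055 and an interval of -0.68 to 0.57. *Gata3*, a T lineage transcription factor below the background limit here, had differences of 0.047, 0.34 and -0.35. The mice did not share a direction in any of these, and not every T lineage target on the list was analysed here. Of 7 measured T and NK cell markers, 4 lay above the background limit.

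**Figure D4:**
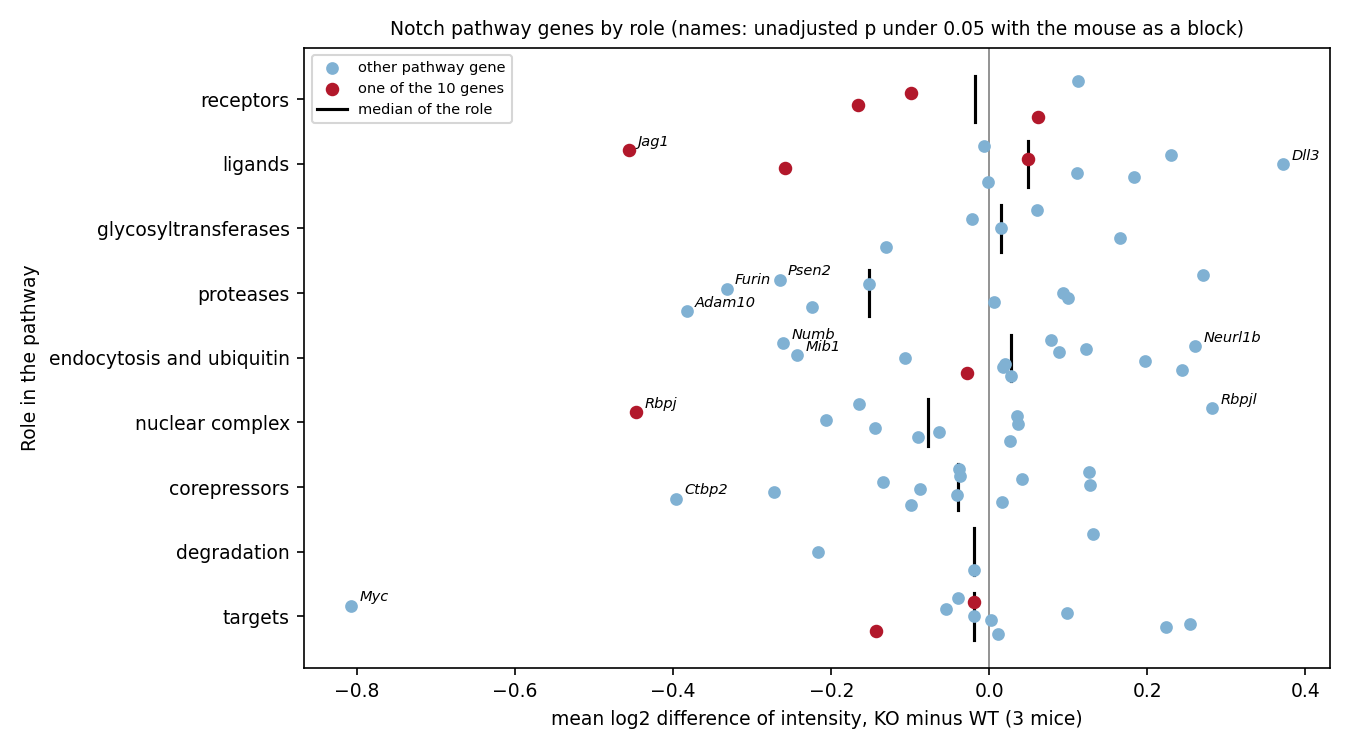
Mean log2 difference of intensity, KO minus WT, over 3 mice (horizontal axis) for 76 pathway genes in 9 roles (vertical axis), with red points for the 10 genes, blue points for the others and a black bar at the median of each role. Names mark genes with an unadjusted p under 0.05 with the mouse as a block, from *Myc* at -0.81 to *Dll3* at 0.37, none of which passed the adjusted p.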

How the data were processed

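The study measured RNA of sorted pDCs, made with biotin label from 200 ng of total RNA per culture, on 6 Affymetrix Mouse Gene 1.0 ST arrays. The deposited values are intensities on a linear scale for 34760 probe sets. How the authors corrected background, summarised probes and normalized arrays is not stated in the labels or the methods read here. The deposited intensities were taken as normalized because the column medians lie close together, at 72.4 to 72.9 for KO and 69.0 to 70.5 for WT arrays. All KO medians lie above all WT medians, and all KO maxima (16944 to 17434) below all WT maxima (18270.4 to 19106), so that centring was tried. The precision is limited by the 3 arrays in each group.

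The values were put on a log2 scale without further normalization. By the platform annotation 21640 probe sets have a single gene symbol, and these were all tested, whereas 1321 have several symbols and 11799 have none. KO and WT were compared by limma 3.58.1 (lmFit, eBayes; R 4.3.3) in two-sided tests, and p-values were adjusted over all 21640 by Benjamini-Hochberg. Standard errors and 95% intervals come from this fit, which has no block unless stated. Without the block they include the spread between mice. The titles pair the arrays by mouse. After group means were taken off, the KO and WT arrays of mice 1, 2 and 3 correlated at 0.81, 0.51 and 0.67. Across mice, the KO array of mouse 3 and the WT array of mouse 2 correlated at 0.50. The KO array of mouse 2 and the WT array of mouse 3 correlated at 0.42, and all crossed pairs with mouse 1 were negative. The value of mouse 2 thus hardly sets its pair apart from mouse 3. A second fit took the mouse as block. Other alternatives were another quantile normalization, centring, a floor, a filter on dim probe sets, array weights, a robust fit with trend, averages over a gene's probe sets, and each array or mouse left out.

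The 10 genes, the pathway list and the marker lists were chosen with earlier results of these data known. The pathway list came from textbook knowledge, and 76 of its 81 symbols were matched (1 of the others is an older name of a matched gene, and the rest were not analysed here). The text names all 10 genes, list genes with an unadjusted p under 0.05 with or without the block, some with the highest intensity of their role (a choice of names that compares probes and says nothing of expression), and the genes most like each of the 10 in part. *Notch4*, *Maml1*, *Maml2*, *Maml3*, *Ep300*, *Kat2a*, *Kat2b*, *Ncstn*, *Psenen*, *Hes5* and the T lineage targets were named for their role after their values were seen.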

Additional observations from a re-analysis of the deposited data

How the results depend on the processing

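No alternative called any of the 10 genes or of the 76 pathway genes at an adjusted p of 0.05, and the median of the 10 genes stayed between -0.18 and -0.10. With the mouse as a replicate block 0 probe sets passed, as without it, and it changed no call. Over all probe sets, 2 passed with a floor at the 20th percentile, 0 to 108 with an array or a mouse left out, and 108 without mouse 1. The median of the pathway list was -0.060 after centring each array on its median, -0.029 with dim probe sets left out (59 genes), and -0.047 to 0.018 with an array or a mouse left out. Of 165 single-gene values under the alternatives, 145 kept their direction. Apart from left-out arrays, *Dll4* turned to -0.0067 after centring and *Dtx1* to 0.028 with array weights. With an array or a mouse left out, the log2 difference ran from -0.086 to 0.34 for *Notch1*, -0.24 to 0.040 for *Notch3*, -0.13 to 0.11 for *Dtx1*, -0.072 to 0.067 for *Nrarp* and -0.098 to 0.22 for *Dll4*. *Notch2*, *Rbpj*, *Hes1*, *Jag1* and *Dll1* stayed below 0 throughout. The cause of these shifts was not tested. The filter on dim probe sets left 5 of the 10 genes. The counts at an unadjusted p with an array or a mouse left out were added after seeing the data. *Nrarp*, *Dll1*, most values of *Jag1* and the WT value of *Dll4* in mouse 3 lie within background, which limits what their differences can show. The KO values of *Hes1* lie not far above it.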
